A study of Mus musculus with 6 samples.

Results

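Serpins form a family of protease inhibitors that share a common protein fold. An inhibitory serpin offers an exposed loop as bait, the target protease cuts it, and the protease is then trapped in a covalent complex. Some members have lost this activity and serve as chaperones, hormone carriers or signalling proteins. Members of clades A, C, D, E, F and G are mostly secreted and control coagulation, fibrinolysis, complement and inflammation, whereas clade B members stay mostly inside cells and guard them against their own granule and lysosomal proteases. In mice, clades A and B were enlarged by local gene duplication, so that several human genes each have a group of mouse paralogs. Adipose tissue is known for secreting pigment epithelium-derived factor (Serpinf1).

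All genes whose symbol starts with Serpin were taken from a gene expression table of mouse epididymal white adipose tissue (eWAT). They numbered 57 of 21361 genes, and 20 reached a mean of 1 FPKM (fragments divided by transcript length and by library size) over the 6 libraries. Mettl14, a subunit of the RNA methyltransferase that installs N6-methyladenosine, was deleted in adipocytes with the adiponectin-Cre transgene. Tissue from 3 Mettl14Δfat mice (Mettl14f/f;adiponectin-Cre+/-) was compared with tissue from 3 Mettl14f/f mice, which carry the floxed alleles on both chromosomes without Cre. The labels call the genotypes Mettl14 AKO and WT, and the titles call the controls ff. Male mice of both groups started a high fat diet at 8 weeks of age, and the labels and methods give 16 weeks of diet where the design text gives 20 weeks. The mice were fasted overnight before the tissue was taken. Whole tissue was used, so the libraries hold RNA of adipocytes and of all other resident cells, whereas Cre acts in adipocytes. In such bulk tissue, fewer cells of a type and less RNA per cell cannot be told apart.

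The values below are scaled FPKM, the deposited FPKM divided by 1 scaling factor per library, unless deposited FPKM are named. The factors were 1.04 to 1.07 in Mettl14Δfat and 0.932 to 0.963 in Mettl14f/f libraries. A change was called where limma, fitted on log2(scaled FPKM + 1) over the 12955 genes that averaged 1 FPKM or more, gave a Benjamini-Hochberg adjusted p under 0.05. Log2 fold changes are on that scale, which understates the change of low genes. With 3 libraries against 3, an exact permutation test on 1 gene has p = 0.1 as its smallest value, so none is given for single genes.

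The targeted gene was lower in the Mettl14Δfat libraries. Mettl14 was at 4.21, 4.12 and 4.27 FPKM in Mettl14Δfat and at 5.35, 5.01 and 5.81 FPKM in Mettl14f/f libraries, without overlap. Its log2 fold change was -0.30 (SE 0.066, adjusted p = 0.0108). The drop was partial in whole tissue and was -0.16 (adjusted p = 0.0856) on deposited FPKM without scaling. Of all 12955 genes tested, 24.8% were called higher and 24.7% lower, to be set beside the marker counts that follow. Macrophage markers were lower, with 8 of 11 called and a summed level of 2458 to 4417 FPKM in Mettl14Δfat and 8073 to 9639 FPKM in Mettl14f/f libraries. Endothelial markers were higher, with 7 of 7 called, at 278 to 290.4 and 129 to 158 FPKM. Of 10 adipocyte markers, 2 were higher and 1 was lower, at 10453 to 15111 and 7944 to 10985 FPKM. These counts moved with the setting: 5 were higher and 0 lower on deposited FPKM, 1 was higher without Mettl14Δfat library 1 or 2 or Mettl14f/f library 2 or 3, 0 were lower without Mettl14Δfat library 1 or Mettl14f/f library 1 or 3, and 0 were higher with Mettl14Δfat library 3 alone. Markers of the male germ line summed to 186 and 289 FPKM in Mettl14Δfat libraries 1 and 2 and to 0.425 FPKM in library 3, against at most 0.987 FPKM in Mettl14f/f libraries. Results are therefore also given with Mettl14Δfat library 3 as the only Mettl14Δfat library where that ends a call. Hepatocyte markers, of interest because liver makes most circulating serpins, summed to 4.00 to 4.41 FPKM in Mettl14Δfat and 4.36 to 4.88 FPKM in Mettl14f/f libraries, and 1 of the 2 tested was lower.

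Among the 20 serpins tested, 8 were higher and 7 were lower in Mettl14Δfat eWAT, and 5 did not pass the test. Over all 12955 genes tested, 24.8% were called higher and 24.7% lower. All Mettl14Δfat libraries lay above all Mettl14f/f libraries for 9 of the 20 serpins and below them for 7, and this held for 30.3% and 30.9% of all genes tested. The counts by clade lay apart, a difference that was not tested. In clade A, 4 of 7 tested genes were higher and 0 were lower, whereas in clade B 1 of 8 was higher and 6 were lower. The filter bears on these counts, because Serpinb9e, Serpinb1c and Serpina3h reached a mean of 1 FPKM only through the group in which they were high. Serpina3h at a deposited mean of 1.04 FPKM lay just inside the filter, and Serpinb1b at 0.883 FPKM lay just outside it. The count of higher serpins was 4 without Mettl14Δfat library 1, 5 without Mettl14f/f library 2 or 3, and 5 with Mettl14Δfat library 3 alone, where 4 were lower.

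**Figure D1:**
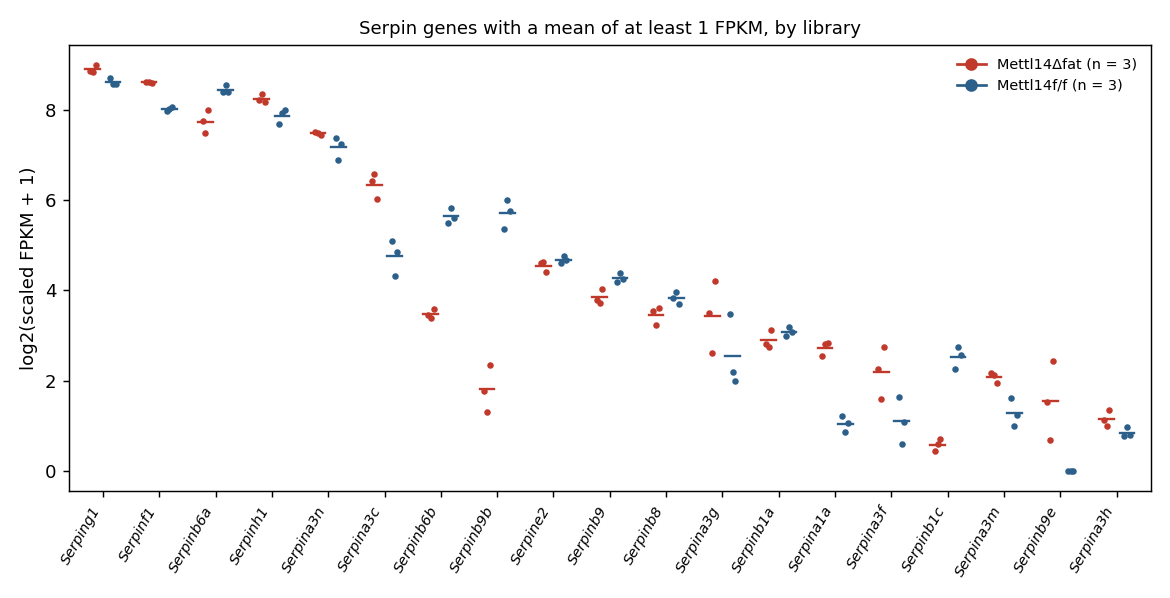
Expression in each library of 19 of the 20 Serpin genes that averaged 1 FPKM or more, as log2(scaled FPKM + 1), with Mettl14Δfat (red) left of Mettl14f/f (blue). Points are libraries and bars are group means, left out where a library is at 0. Serping1, Serpinf1, Serpinb6a, Serpinh1 and Serpina3n are the highest, and Serpinb9b and Serpinb6b show the widest gap between groups.

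A few genes made up most of the serpin RNA. Serping1, Serpinf1, Serpinb6a, Serpinh1 and Serpina3n held 87.6% to 88.6% of the summed serpin FPKM in Mettl14Δfat and 83.5% to 85.0% in Mettl14f/f libraries. The sum over all serpins was 1759, 1741 and 1804 FPKM in Mettl14Δfat and 1609, 1644 and 1647 FPKM in Mettl14f/f libraries, so the groups did not overlap. Mettl14Δfat libraries also listed more serpins above 0, with 49, 49 and 45 against 40, 37 and 43 genes. Genes listed at 0 over the whole table numbered 2164, 2021 and 3530 in Mettl14Δfat and 3778 to 3987 in Mettl14f/f libraries.

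The promoters of the genes that changed most are shown because the gene families lie in tandem and related promoters can be read side by side. RefSeq (GRCm38.p6) held promoters of 47 of the 57 serpins, from 250 bases before to 50 bases after each start. Among 32851 such promoters, 13.6% held the letters GAGGAAG on either strand, the core of sites of PU.1, a myeloid transcription factor. Among the 17 Serpinb promoters of chromosome 13, 3 held them (17.6%), those of Serpinb1c, Serpinb6b and Serpinb9b. These 3 genes had the largest drops of all serpins tested. Over all 56 serpin promoters, 8 held the letters (14.3%), a share near that of all promoters, and among the other 5 genes Serpina3b, Serpini1 and Serpine3 had every Mettl14Δfat library above every Mettl14f/f library while Serpina16 and Serpinb7 overlapped, so the letters did not go with 1 direction. The match is a description of letters, and the motif was chosen with the expression results known. The promoters are written 5′ to 3′ on the strand of the gene, with the match in capitals, and the promoter of Serpinb9, the paralog next to Serpinb9b, is shown for comparison and holds none.
Serpinb9b (chr13:33027164-33027463, plus strand): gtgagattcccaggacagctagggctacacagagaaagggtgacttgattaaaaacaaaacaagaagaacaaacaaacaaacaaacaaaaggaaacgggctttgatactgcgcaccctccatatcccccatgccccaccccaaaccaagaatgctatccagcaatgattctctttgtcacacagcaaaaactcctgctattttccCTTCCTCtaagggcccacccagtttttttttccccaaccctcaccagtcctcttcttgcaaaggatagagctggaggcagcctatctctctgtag
Serpinb6b (chr13:32965011-32965310, plus strand): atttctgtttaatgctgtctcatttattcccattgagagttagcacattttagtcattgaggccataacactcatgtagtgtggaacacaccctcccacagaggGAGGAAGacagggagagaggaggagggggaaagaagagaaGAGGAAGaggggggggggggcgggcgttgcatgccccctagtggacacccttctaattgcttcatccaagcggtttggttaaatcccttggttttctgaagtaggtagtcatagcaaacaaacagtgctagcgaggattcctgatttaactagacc
Serpinb1c (chr13:32940551-32940850, minus strand): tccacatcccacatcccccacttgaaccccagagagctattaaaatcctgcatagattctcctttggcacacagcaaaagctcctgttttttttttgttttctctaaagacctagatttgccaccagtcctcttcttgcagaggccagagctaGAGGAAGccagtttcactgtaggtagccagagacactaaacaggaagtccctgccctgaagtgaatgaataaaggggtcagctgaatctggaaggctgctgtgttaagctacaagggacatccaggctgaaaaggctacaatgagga
Serpinb9 (chr13:33004291-33004590, plus strand): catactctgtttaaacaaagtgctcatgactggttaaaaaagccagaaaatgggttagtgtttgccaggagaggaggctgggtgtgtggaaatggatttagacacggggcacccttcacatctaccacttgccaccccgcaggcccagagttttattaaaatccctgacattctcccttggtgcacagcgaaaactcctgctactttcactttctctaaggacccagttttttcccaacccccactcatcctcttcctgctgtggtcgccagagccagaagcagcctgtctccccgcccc
The match began 45 bases before the start in Serpinb9b, 97 bases before it in Serpinb1c, and 146 and 106 bases before it in Serpinb6b. Serpinb1c has a second RefSeq promoter without these letters. The promoters of Serpinb9b and Serpinb9 were identical at 186 of 276 aligned bases (67.4%).

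In clade A, Serpina3c and Serpina3n had closely related promoters and unequal changes. They were identical at 275 of 294 aligned bases (93.5%). The capitals mark TATAAA on either strand, which 13.6% of all promoters held. The match in Serpina3c began 132 bases before the start, farther upstream than a TATA box usually lies.
Serpina3c (chr12:104153823-104154122, minus strand): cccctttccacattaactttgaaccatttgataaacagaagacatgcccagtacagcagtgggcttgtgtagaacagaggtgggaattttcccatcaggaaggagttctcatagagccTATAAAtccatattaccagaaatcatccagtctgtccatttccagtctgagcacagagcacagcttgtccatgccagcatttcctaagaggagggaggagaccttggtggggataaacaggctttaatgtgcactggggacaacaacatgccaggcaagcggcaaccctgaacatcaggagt
Serpina3n (chr12:104406458-104406757, plus strand): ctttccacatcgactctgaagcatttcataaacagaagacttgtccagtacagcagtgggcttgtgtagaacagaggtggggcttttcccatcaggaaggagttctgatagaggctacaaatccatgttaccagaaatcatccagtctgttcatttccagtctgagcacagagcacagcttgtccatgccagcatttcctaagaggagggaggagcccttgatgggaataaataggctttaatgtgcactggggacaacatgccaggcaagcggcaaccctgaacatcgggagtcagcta
Serpina3c had the larger change of this pair (log2 fold change 1.58), and Serpina3n did not pass the test (log2 fold change 0.31).

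Clade A holds the α1-antitrypsin (Serpina1) and α1-antichymotrypsin (Serpina3) groups, acute phase inhibitors that in liver are secreted into blood. Serpina3c, once named kallikrein-binding protein, was at 84.3, 94.9 and 64.1 FPKM in Mettl14Δfat and at 33.3, 18.8 and 28.0 FPKM in Mettl14f/f libraries. The lowest Mettl14Δfat library was above the highest Mettl14f/f library. Its means were 81.1 ± 15.7 and 26.7 ± 7.36 FPKM (SD, n = 3 each), 3.04 times as high in Mettl14Δfat, with a log2 fold change of 1.58 (SE 0.23, adjusted p = 0.00218). Serpina3n, an inhibitor of granzyme B and leukocyte elastase, was at 180.5, 179 and 172 FPKM in Mettl14Δfat and at 164, 118 and 151 FPKM in Mettl14f/f libraries. The groups did not overlap, but the log2 fold change of 0.31 (SE 0.12) did not pass the test (adjusted p = 0.076). It passed without Mettl14f/f library 1, the highest control library (adjusted p = 0.0379), and on deposited FPKM (adjusted p = 0.0252).

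Serpina1a, a mouse α1-antitrypsin that inhibits neutrophil elastase, was at 4.81, 6.02 and 6.08 FPKM in Mettl14Δfat and at 1.34, 0.816 and 1.09 FPKM in Mettl14f/f libraries. Its means were 5.64 ± 0.719 and 1.08 ± 0.262 FPKM, 5.21 times as high in Mettl14Δfat, and its log2 fold change was 1.67 (SE 0.13, adjusted p = 0.000321). The split of this RNA among the paralogs is uncertain, since 49.9% of the 100-base words of the Serpina1a transcript occur also in transcripts of other genes, mostly its paralogs. Serpina1c, with 69.3% of words shared, was at 1.09, 0.187 and 0.241 FPKM in Mettl14Δfat and at 0.467, 0.687 and 0.478 FPKM in Mettl14f/f libraries, with overlap. Neutrophils are the source of the elastase that Serpina1a inhibits. Their markers summed to 42.6 to 51.9 FPKM in Mettl14Δfat and 19.5 to 26.7 FPKM in Mettl14f/f libraries. Most of this sum was S100a8, at 27.9 to 39.3 and 11.5 to 14.1 FPKM. Of 4 neutrophil markers tested, 2 were higher and 2 did not pass the test, beside 24.8% higher and 24.7% lower over all genes tested. Under the filter, Ltf was lower and Camp was higher in every Mettl14Δfat library than in any Mettl14f/f library. The other neutrophil markers under the filter overlapped. Neutrophil elastase itself (Elane) overlapped, at 0.183 to 0.457 and 0 to 0.415 FPKM. The part of neutrophils in the serpin values was not tested.

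The other Serpina3 genes were lower in level. Serpina3m was at 3.48, 3.38 and 2.88 FPKM in Mettl14Δfat and at 2.09, 1.01 and 1.38 FPKM in Mettl14f/f libraries, without overlap, with a log2 fold change of 0.79 (SE 0.17, adjusted p = 0.00883). With Mettl14Δfat library 3 as the only Mettl14Δfat library its adjusted p was 0.114. Serpina3f was at 3.78, 2.02 and 5.69 FPKM in Mettl14Δfat and at 2.11, 0.515 and 1.14 FPKM in Mettl14f/f libraries, so that the lowest Mettl14Δfat library lay under the highest Mettl14f/f library. It was called higher, with a log2 fold change of 1.09 (SE 0.36, adjusted p = 0.0424), and lost the call without Mettl14Δfat library 1 or 3 or Mettl14f/f library 2 or 3 (adjusted p 0.0733 to 0.129). Serpina3g, known to inhibit lysosomal cathepsins in activated lymphocytes, was at 10.3, 5.10 and 17.6 FPKM in Mettl14Δfat and at 10.1, 3.58 and 2.96 FPKM in Mettl14f/f libraries. The groups overlapped and the log2 fold change of 0.89 (SE 0.51) did not pass the test (adjusted p = 0.19). Serpina3f and Serpina3g were both highest in Mettl14Δfat library 3 and, among controls, in Mettl14f/f library 1. Cytotoxic lymphocyte markers summed to 9.01 to 17.5 FPKM in Mettl14Δfat and to 6.74 to 15.8 FPKM in Mettl14f/f libraries, with the highest sums in those same libraries, and their part was not tested. Serpina3h, at 0.998 to 1.54 FPKM in Mettl14Δfat and 0.716 to 0.955 FPKM in Mettl14f/f libraries, did not pass the test (adjusted p = 0.109). Between 3.58% and 6.09% of the 100-base words of Serpina3f, Serpina3g, Serpina3h and Serpina3m transcripts occur in other genes, against 0.204% for Serpina3n and 0% for Serpina3c.

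Clade B changed mostly in the other direction, and its 3 largest drops came from neighbouring genes. Serpinb9b, a paralog of the granzyme B inhibitor Serpinb9, was at 2.42, 1.48 and 4.08 FPKM in Mettl14Δfat and at 39.8, 63.4 and 53.2 FPKM in Mettl14f/f libraries. Its means were 2.66 ± 1.32 and 52.1 ± 11.8 FPKM, a ratio of 0.0511, and its log2 fold change of -3.90 (SE 0.28, adjusted p = 0.000273) was the largest in size among the serpins tested. Serpinb6b, a paralog of the cathepsin G inhibitor Serpinb6a, was at 10.04, 9.475 and 11.02 FPKM in Mettl14Δfat and at 44.2, 55.3 and 47.8 FPKM in Mettl14f/f libraries. Its log2 fold change was -2.16 (SE 0.096, adjusted p = 0.000107), and its ratio of means was 0.207. Serpinb1c, a paralog of the neutrophil elastase inhibitor Serpinb1a, was at 0.366, 0.522 and 0.627 FPKM in Mettl14Δfat and at 3.77, 5.74 and 4.96 FPKM in Mettl14f/f libraries. Its log2 fold change was -1.94 (SE 0.15, adjusted p = 0.000327), with a ratio of means of 0.105. Serpinb1c passed the filter only through the Mettl14f/f libraries, so its adjusted p follows a selection on the same values. For these 3 genes every Mettl14Δfat library was lower than every Mettl14f/f library by a wide margin, and the calls were kept under every alternative that tested them.

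Serpinb6a, which inhibits cathepsin G, was the most abundant clade B gene. It was at 213, 177 and 252 FPKM in Mettl14Δfat and at 335, 372 and 334 FPKM in Mettl14f/f libraries, without overlap. Its log2 fold change was -0.71 (SE 0.13, adjusted p = 0.00561), and -0.44 (adjusted p = 0.0386) with Mettl14Δfat library 3 alone. The transcript shares 12.2% of its 100-base words with the overlapping gene 1110046J04Rik, and whether strand was used in counting is not stated in the sources at hand. Serpinb9, the granzyme B inhibitor, was at 12.8, 12.2 and 15.4 FPKM in Mettl14Δfat and at 17.2, 19.9 and 18.0 FPKM in Mettl14f/f libraries, with a log2 fold change of -0.42 (SE 0.098, adjusted p = 0.0127). The call was lost without Mettl14Δfat library 1 (adjusted p = 0.0527) and with Mettl14Δfat library 3 alone (adjusted p = 0.171). Serpinb8, known to inhibit furin, was at 10.6, 8.34 and 11.2 FPKM in Mettl14Δfat and at 13.2, 14.7 and 11.99 FPKM in Mettl14f/f libraries. Its log2 fold change of -0.38 (SE 0.12, adjusted p = 0.0371) did not hold in 8 of 14 alternatives, among them those without Mettl14Δfat library 1 or 2 or Mettl14f/f library 1 or 2 (adjusted p 0.0691 to 0.117) and that with Mettl14Δfat library 3 alone (-0.21, adjusted p = 0.254). Serpinb1a, an inhibitor of neutrophil elastase and cathepsin G, was at 5.97, 5.74 and 7.68 FPKM in Mettl14Δfat and at 6.95, 8.08 and 7.45 FPKM in Mettl14f/f libraries. The groups overlapped and it did not pass the test (log2 fold change -0.19, SE 0.11, adjusted p = 0.182), but did so without Mettl14Δfat library 3 (-0.31, adjusted p = 0.0129).

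Serpinb9e was the only clade B gene called higher. It was at 1.91, 0.606 and 4.40 FPKM in Mettl14Δfat and was listed at 0 in all 3 Mettl14f/f libraries, so no fold is given. It passed the filter only through the Mettl14Δfat libraries, so its adjusted p of 0.0208 follows a selection on the same values. The call was lost without Mettl14Δfat library 1 or without any 1 of the Mettl14f/f libraries (adjusted p 0.0577 to 0.0624). The transcript shares 10.1% of its 100-base words with Serpinb9 paralogs. Its sister gene Serpinb9b, by contrast, was the serpin with the largest drop.

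Macrophage markers were lower together with 6 of the 8 clade B genes tested, but not with Serpinb9e, which was higher, or Serpinb1a, which overlapped. Their sum was 3182, 2458 and 4417 FPKM in Mettl14Δfat libraries 1, 2 and 3, and Serpinb6a, Serpinb6b, Serpinb9, Serpinb9b, Serpinb9e, Serpinb1a and Serpinb8 stood in the same order over these libraries, lowest in library 2 and highest in library 3. Serpinb1c was the exception, lowest in library 1. The fibroblast (1020, 928 and 1167 FPKM), mast cell (50.8, 35.0 and 68.8 FPKM) and cytotoxic lymphocyte sums (13.6, 9.01 and 17.5 FPKM) had this order too. The reverse order, highest in library 2 and lowest in library 3, was that of the adipocyte sums (13413, 15111 and 10453 FPKM). Mesothelial (35.7, 54.2 and 20.0 FPKM) and male germ line sums (186, 289 and 0.425 FPKM) also had the reverse order. In Mettl14f/f libraries 1, 2 and 3 the macrophage sums were 8073, 9639 and 8644 FPKM, lowest in library 1 and highest in library 2. Serpinb6b, Serpinb9, Serpinb9b, Serpinb1a and Serpinb1c had that order, as did the mast cell sums (49.5, 65.2 and 57.0 FPKM). Serpinb6a and Serpinb8 did not, nor did the fibroblast (1102, 1021 and 981 FPKM) and cytotoxic lymphocyte sums (15.8, 6.74 and 9.23 FPKM). The part of any of these cells in the clade B values was not tested.

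**Figure D2:**
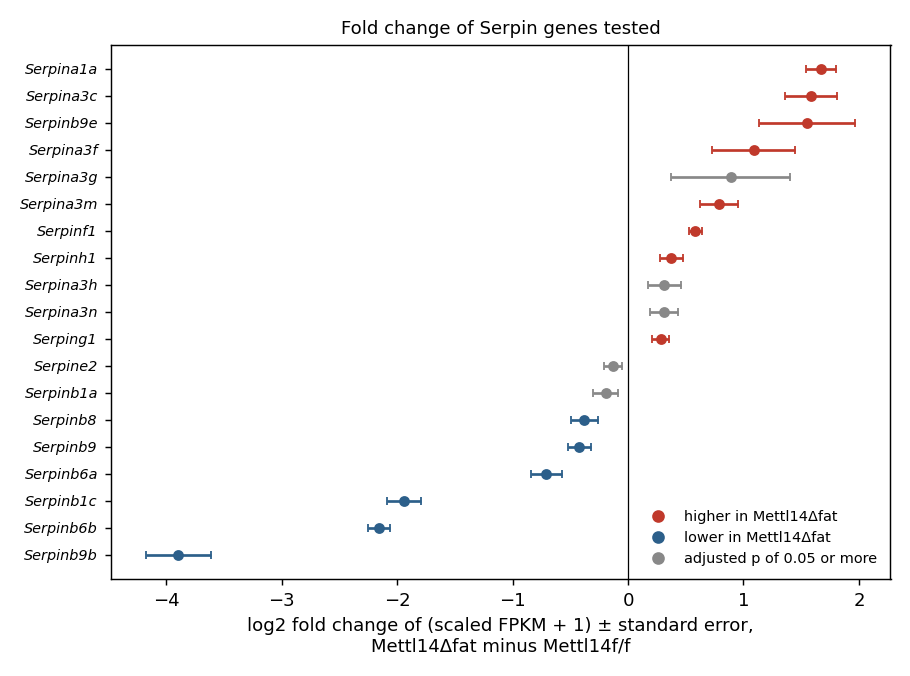
Log2 fold change of (scaled FPKM + 1), Mettl14Δfat minus Mettl14f/f, for 19 of the 20 serpins tested, with standard errors. Serpina1a at 1.67 is at the top and Serpinb9b at -3.90 at the bottom, and the 5 grey genes did not pass an adjusted p of 0.05. The value drawn for Serpinb9e depends on the pseudocount, since its Mettl14f/f libraries are listed at 0.

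The tandem arrangement made it possible to set each cluster beside its neighbours. The 25 Serpina genes of chromosome 12 (103616675 to 104414334, GRCm38) held 7 tested genes, 4 higher and 0 lower. Among 17 other genes tested within 1 Mb of the cluster, 6 were higher and 4 were lower. The 14 Serpinb genes of chromosome 13 (32842092 to 34002794) held 7 tested genes, 1 higher and 5 lower. Their 14 neighbours held 3 higher and 3 lower genes. Called genes made up 58.8% of the neighbours on chromosome 12 and 42.9% on chromosome 13. Over all genes tested, 24.8% were called higher and 24.7% lower, so the neighbours lay near the share of all genes. Serpinb1c, Serpinb6b, Serpinb9 and Serpinb9b follow one another along the chromosome without another serpin between them, and all 4 were lower. Serpinb6a, also lower, lies at the far end of the cluster. A further cluster, 7 Serpinb genes of chromosome 1, held 1 tested gene, Serpinb8.

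**Figure D3:**
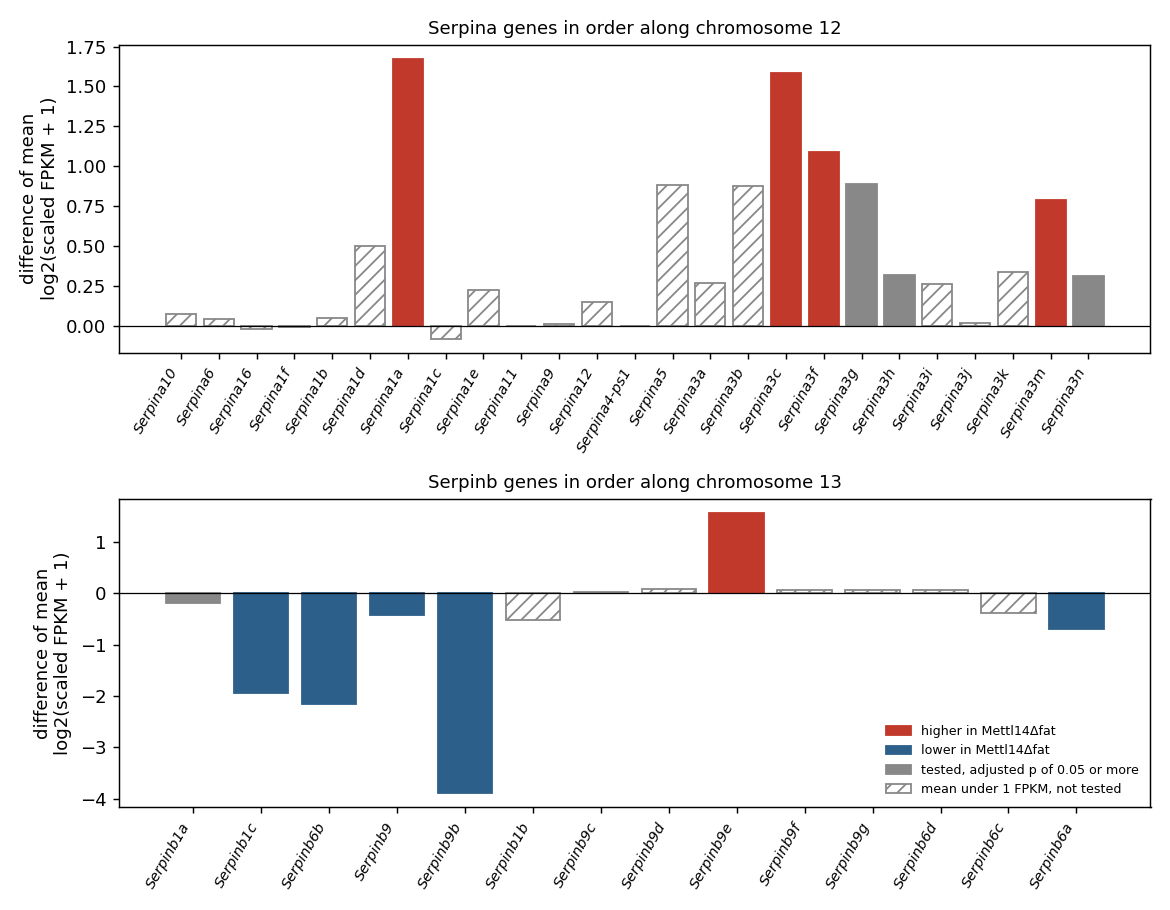
Difference of mean log2(scaled FPKM + 1), Mettl14Δfat minus Mettl14f/f, for the Serpina genes of chromosome 12 (top) and the Serpinb genes of chromosome 13 (bottom) in chromosomal order, not to scale in distance. Colour marks called genes, grey bars genes that did not pass the test, and hatched bars genes with a mean under 1 FPKM. On chromosome 13, Serpinb1c, Serpinb6b, Serpinb9 and Serpinb9b are all lower.

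Serping1, the C1 inhibitor that blocks the complement proteases C1r and C1s and plasma kallikrein, was the most abundant serpin. It was at 463, 456 and 507 FPKM in Mettl14Δfat and at 415, 381 and 377 FPKM in Mettl14f/f libraries, without overlap. Its log2 fold change was 0.28 (SE 0.076, adjusted p = 0.0212). The call was lost in 7 of 14 alternatives, with an adjusted p of 0.0673 without Mettl14Δfat library 1, 0.0743 without Mettl14f/f library 2, 0.0897 without Mettl14f/f library 3 and 0.0549 with Mettl14Δfat library 3 alone. In the list of C1 and lectin pathway genes, 1 of 7 tested genes was higher and 0 were lower. The median log2 fold change was 0.02 against 0.01 over all genes tested, of which 24.8% were called higher and 24.7% lower. The 1 was C2, a substrate of C1s, with a log2 fold change of 0.72 (adjusted p = 0.0016). The count of 1 was 2 without Mettl14f/f library 1, and the count of 0 was 1 without Mettl14Δfat library 3, while 2 of the 7 genes had an unadjusted limma p under 0.05.

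Serpinf1, pigment epithelium-derived factor, is a secreted protein without inhibitory activity that is known to restrain angiogenesis and to bind adipose triglyceride lipase. It was at 389.7, 389.6 and 383 FPKM in Mettl14Δfat and at 250.5, 258 and 267 FPKM in Mettl14f/f libraries. The means were 387 ± 3.88 and 258 ± 8.04 FPKM, and the log2 fold change was 0.58 (SE 0.059, adjusted p = 0.00068). The spread within either group was small beside the difference, and the call was kept in all 14 alternatives. The 7 endothelial markers, all higher, are given above, and their part was not tested.

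Serpine2, protease nexin 1, which inhibits thrombin and Plau, was at 23.4, 23.7 and 20.0 FPKM in Mettl14Δfat and at 23.2, 26.0 and 24.4 FPKM in Mettl14f/f libraries. The groups overlapped and it did not pass the test (log2 fold change -0.13, SE 0.081, adjusted p = 0.215). Its sign turned on deposited FPKM (0.023, adjusted p = 0.831).

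Other genes of the plasminogen system are set beside Serpine2. Of 10 tested, 2 were higher, 5 were lower and 3 did not pass the test, with a median log2 fold change of -0.18. Lower genes numbered 3 without Mettl14Δfat library 1 or Mettl14f/f library 2 or 3. The urokinase receptor Plaur (log2 fold change -1.13, adjusted p = 0.000936) and the endocytic receptor Lrp1, which clears complexes of serpins with proteases (-1.15, adjusted p = 0.000515), were lower. The lipoprotein receptor Vldlr (1.26, adjusted p = 0.00129) and vitronectin (Vtn), a matrix and plasma protein (1.10, adjusted p = 0.000414), were higher. Of the plasminogen activators, named after their values were seen, Plau was lower, at 84.2, 79.3 and 93.7 FPKM in Mettl14Δfat and at 119, 121 and 115 FPKM in Mettl14f/f libraries (-0.46, adjusted p = 0.00319). Plat was at 13.1, 14.04 and 12.7 FPKM in Mettl14Δfat and at 12.9, 16.7 and 15.1 FPKM in Mettl14f/f libraries and did not pass the test (-0.15, adjusted p = 0.23), but did so without Mettl14f/f library 1 (adjusted p = 0.0443). Antithrombin (Serpinc1) and heparin cofactor II (Serpind1) act in coagulation. Of 13 tested genes of coagulation and its regulation, not all of them targets of these 2 serpins, 4 were higher and 5 were lower (median -0.14). Over all genes tested, 24.8% were called higher and 24.7% lower. The transglutaminase subunit F13a1 was higher (2.03, adjusted p = 0.000647), and the serine protease zymogens F7 (-1.91, adjusted p = 0.000191) and F10 (-0.91, adjusted p = 0.00292) and the protein C receptor Procr (-1.19, adjusted p = 0.000515) were lower.

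Serpinh1, also named Hsp47, is a collagen chaperone of the endoplasmic reticulum and inhibits no protease. It was at 297, 324 and 285 FPKM in Mettl14Δfat and at 205, 243 and 252 FPKM in Mettl14f/f libraries, without overlap, with a log2 fold change of 0.37 (SE 0.10, adjusted p = 0.0205). The call was lost without Mettl14Δfat library 1 (adjusted p = 0.0575) and with Mettl14Δfat library 3 alone (adjusted p = 0.166). Among all genes tested, 24.8% were higher and 24.7% lower. Of 21 procollagen and processing genes, 7 were higher, 7 were lower and 7 did not pass the test (median 0.07). Higher genes numbered 11 on deposited FPKM and 1 with Mettl14Δfat library 3 alone. The collagen chains, clients of Serpinh1, were called in both directions. Of the fibrillar chains, Col3a1 (-1.13, adjusted p = 0.00109), Col1a1 (-1.002, adjusted p = 0.00157), Col5a2 (-0.95, adjusted p = 0.00204) and Col1a2 (-0.80, adjusted p = 0.00184) were lower, as was Col5a1 (-0.25, adjusted p = 0.0494), whose call was lost in 10 of 14 alternatives, among them those without Mettl14Δfat library 1, 2 or 3 or Mettl14f/f library 2 or 3 (adjusted p 0.0663 to 0.149). The microfibril chain Col6a3 (-0.30, adjusted p = 0.0539) and the basement membrane chain Col4a1 (0.17, adjusted p = 0.0862) did not pass the test. Of the same collagen types, Col4a2 (0.35, adjusted p = 0.011), Col6a1 (0.32, adjusted p = 0.0116) and Col6a2 (0.32, adjusted p = 0.0209) were higher, as Serpinh1 was. These 3 genes were named, with Col5a1, after their values were seen. These 3 calls were lost with Mettl14Δfat library 3 alone (adjusted p 0.113 to 0.182), and that of Col6a2 also without Mettl14Δfat library 1 or 2 or Mettl14f/f library 3 (adjusted p 0.0504 to 0.07).

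Proteases that clade A and B serpins meet were counted in the same way, beside 24.8% higher and 24.7% lower over all genes tested. Of 13 cysteine cathepsins and inflammatory caspases, 1 was higher and 7 were lower, with a median of -0.47, and 4 were lower with Mettl14Δfat library 3 alone. Cathepsin K (Ctsk, -1.90, adjusted p = 0.000181), cathepsin S (Ctss, -1.15, adjusted p = 0.0131), cathepsin L (Ctsl, -1.12, adjusted p = 0.000447) and cathepsin B (Ctsb, -0.93, adjusted p = 0.00256) were lower, and cathepsin S was at an adjusted p of 0.05 without Mettl14f/f library 2. Of 7 tested leukocyte serine proteases, the granzymes, elastase and their kin, 0 were called by limma and 0 had an unadjusted p under 0.05. Without Mettl14Δfat library 3, 1 was higher and 1 was lower, and 1 was higher without Mettl14f/f library 1. Granzyme B (Gzmb), the target of Serpinb9 and named after its values were seen, was at 0.811 to 1.73 FPKM in Mettl14Δfat and at 0.86 to 1.26 FPKM in Mettl14f/f libraries. Of 12 secreted and membrane serine proteases, 3 were higher and 1 was lower (median -0.08), among them Htra1 (1.07, adjusted p = 0.000394) and Prss23 (-0.95, adjusted p = 0.000233), and 2 were lower without Mettl14Δfat library 2 or 3.

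Inhibitors outside the serpin family and the acute phase list give the setting of clade A. For comparison, 24.8% of all genes tested were higher and 24.7% lower. Of 18 other inhibitors, 4 were higher and 3 were lower (median 0.12). Spint2, a Kunitz inhibitor (1.79, adjusted p = 0.014), and Pebp1 (0.98, adjusted p = 0.000317) were higher, and Pi16 (-1.58, adjusted p = 0.00205) and the metalloprotease inhibitor Timp1 (-0.91, adjusted p = 0.0259) were lower. Spint2 was at 32.9, 47.2 and 13.01 FPKM in Mettl14Δfat and at 6.91, 6.24 and 8.71 FPKM in Mettl14f/f libraries, highest in the libraries with germ line markers, and lost its call without Mettl14f/f library 2 (adjusted p = 0.0532). Timp1 lost its call without Mettl14Δfat library 1 or 2 or Mettl14f/f library 2 or 3, with an adjusted p of up to 0.268 over all alternatives. Of 10 acute phase genes, 7 were higher, 2 were lower and 1 did not pass the test (median 0.89), and 0 were lower with Mettl14Δfat library 3 alone. The heme carrier Hpx (3.58, adjusted p = 0.000102), the siderophore binder Lcn2 (3.14, adjusted p = 0.000479) and the orosomucoids Orm2 (2.52, adjusted p = 0.000358) and Orm1 (1.19, adjusted p = 0.00193) were higher. Hp (-0.61, adjusted p = 0.0077) and Saa3 (-0.89, adjusted p = 0.0141), named after their values were seen, were lower. The summed acute phase level overlapped, at 1468 to 1687 FPKM in Mettl14Δfat and 1437 to 1891 FPKM in Mettl14f/f libraries.

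The remaining 37 serpins had a mean under 1 FPKM and were not tested. All Mettl14Δfat libraries lay above all Mettl14f/f libraries for 9 of them and below for 3, and 25 overlapped. Over all 8406 genes under 1 FPKM, the Mettl14Δfat libraries lay above for 17.0% and below for 3.77%, and 2 of the Mettl14Δfat libraries listed fewer genes at 0 than any other library. In 6 of the 37, at least 1 library reached 1 deposited FPKM. Serpind1, heparin cofactor II, which inhibits thrombin, was at 1.09, 1.03 and 1.00 FPKM in Mettl14Δfat and at 0.114, 0.0215 and 0.138 FPKM in Mettl14f/f libraries. Serpina3b was at 1.34, 1.41 and 0.782 FPKM in Mettl14Δfat and at 0.239, 0.107 and 0.191 FPKM in Mettl14f/f libraries. The groups of both genes lay far apart, with Mettl14Δfat higher. Serpinb12 was at 0.197, 0.252 and 0.299 FPKM in Mettl14Δfat and at 1.13, 1.08 and 1.01 FPKM in Mettl14f/f libraries. Serpinb1b was at 0.498, 0.588 and 0.589 FPKM in Mettl14Δfat and at 1.02, 1.59 and 1.14 FPKM in Mettl14f/f libraries. Both clade B genes were lower in every Mettl14Δfat library. In a fit without the filter, these 4 genes passed the test (adjusted p 0.000863 for Serpind1, 0.00538 for Serpina3b, 0.00117 for Serpinb12 and 0.0146 for Serpinb1b).

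Serpina5, the protein C inhibitor, which in mice is made in the reproductive tract, was at 1.23 and 1.87 FPKM in Mettl14Δfat libraries 1 and 2. It was listed at 0 in Mettl14Δfat library 3 and in Mettl14f/f libraries 1 and 2, and was at 0.0212 FPKM in Mettl14f/f library 3. Libraries 1 and 2 of Mettl14Δfat are those with germ line markers, and the epididymal epithelium list was also highest there, at 2.01 and 4.41 FPKM against 0.183 FPKM in library 3 and 0.135 to 0.297 FPKM in Mettl14f/f libraries. Serpina1c, given above with Serpina1a, was the remaining member of the 6. The other 31 serpins stayed at or under 0.905 FPKM in every library, and Serpina11 and Serpina7, the thyroxine carrier, were listed at 0 in all 6. Depth limits these values: 1 FPKM of a transcript of 1500 bases corresponds to about 28.8 fragments in a Mettl14Δfat and 33.3 fragments in a Mettl14f/f library.

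**Figure D4:**
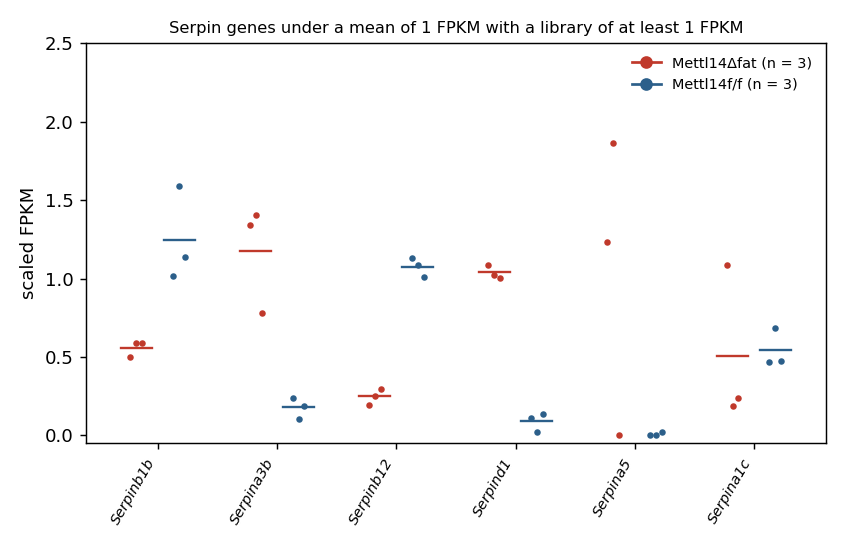
Scaled FPKM of the 6 serpins with a mean under 1 FPKM and at least 1 library of 1 FPKM or more, with Mettl14Δfat (red) left of Mettl14f/f (blue). Points are libraries and bars are group means, left out where a library is at 0. Serpind1 and Serpina3b are higher and Serpinb12 and Serpinb1b lower in all Mettl14Δfat libraries, and Serpina5 is above 1 FPKM only in Mettl14Δfat libraries 1 and 2.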

How the data were processed

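RNA of eWAT from 3 Mettl14Δfat and 3 Mettl14f/f mice, each in a library of its own, was sequenced on the DNBseq platform. The authors deposited FPKM per gene and library, and these values were used for all results. Per the submitters' processing notes, the tools were HISAT2 and Bowtie2, RSEM and DESeq2 with build mm10, whereas the published methods name STAR, HTSeq and DESeq2. Not given in the sources used here are versions, read length and strand use. A separate deposited table of changed genes holds the authors' group means of scaled counts (a signal, without replicate values), used with gene length to estimate depth, about 19200000 fragments per Mettl14Δfat and 22200000 per Mettl14f/f library. The authors' own fold changes and p-values were not used. Whole-read counts per library were not at hand, so no count test was run, and intervals and floors from counts are not given.

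FPKM were divided by trimmed-mean scaling factors (30% of ratios and 5% of levels trimmed) and tested as log2(scaled FPKM + 1), with limma 3.58.1 in R 4.3.3 (trended empirical Bayes, 2-sided), over the 12955 of 21361 genes that averaged 1 FPKM or more. Benjamini-Hochberg adjustment ran over all of them. The script was tested on simulated data. Alternatives changed the pseudocount to 0.1, the filter, the scaling and a replicate block, left out each library, or kept Mettl14Δfat library 3 alone. Every serpin with a mean of at least 1 FPKM was named, except 1 that is counted but not reported here, and the libraries were given for those with a mean of at least 5 FPKM or a call. Of each gene list, up to 4 called genes with the largest change and a mean of at least 5 FPKM were named. Serpins under 1 FPKM were named where a library reached 1 FPKM. The gene lists held 253 genes of 261 written. Members and lists were chosen with earlier results of these data known. Positions and promoters came from RefSeq (GRCm38.p6, the assembly of mm10), promoter identity from a global alignment with Biopython 1.88, and shared words of 100 bases from GENCODE M21 transcripts.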

Additional observations from a re-analysis of the deposited data

How the results depend on the processing

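Requiring at least 1 FPKM in every library left 14 serpins tested, with 4 higher and 6 lower. With Mettl14Δfat library 3 as the only Mettl14Δfat library, whose spread was assumed to equal that of the controls, 5 were higher and 4 lower, and the value for Mettl14 was -0.26 (adjusted p = 0.134). Leaving out each library in turn gave 4 to 8 higher and 5 to 8 lower serpins and a Mettl14 log2 fold change of -0.34 to -0.25, past the threshold each time. On FPKM as deposited, the median over all genes was 0.15 against 0.01 (log2), 70.4% of called genes were higher against 50.1%, 9 serpins were higher and 6 lower, Mettl14 was at -0.16 (adjusted p = 0.0856), Serpine2 turned to 0.023 and Plat to 0.00045. Serpinb1a turned to 0.046 with Mettl14Δfat library 3 alone. Without a filter, 55 serpins were tested, 9 were higher and 9 lower, and 11 of the 15 calls were kept. The deviations of same-numbered libraries from their group means correlated at 0.0393, -0.0931 and -0.129. With 3 libraries per group, these values cannot show whether the replicate numbers pair the animals. With a replicate block, 7 serpins were higher and 6 lower, with 13 of the 15 calls kept. The causes of these changes were not tested.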
